A study of Mus musculus with 12 samples.

Results

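The cytosolic ribosomal protein genes were taken as every row whose gene name has the form of a large subunit (Rpl, Rplp) or small subunit (Rps, Rpsa) symbol, leaving out names marked as pseudogenes. This gave 80 of the 25655 genes in each of 2 tables, 49 of the large subunit and 31 of the small. All 80 were annotated as protein coding. The cells were sorted PDGFRα+ stromal cells of mice, from muscle (CD45-, CD31-, Vcam1-, PDGFRα+) and from bone (CD45-, CD31-, PDGFRα+), with 3 control and 3 knockout samples per tissue. Knockout samples were labelled PDGFRα-CreER;Esr1flox/flox in both tissues, so that Esr1, the estrogen receptor alpha gene, was floxed on both alleles in animals with a CreER recombinase labelled with PDGFRα. Of the muscle controls, replicates 1 and 2 were PDGFRα-CreER and replicate 3 was PDGFRα-CreER;Esr1flox/+. Of the bone controls, replicate 1 was Esr1flox/flox with no CreER on its label, and replicates 2 and 3 were PDGFRα-CreER. The control genotypes were therefore mixed, ages and drug treatment are not given in the labels used here, and nothing says whether replicates came from separate animals. The series title names female mice. The libraries were made with a 3′ mRNA kit, which counts the ends of polyadenylated transcripts.

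Each cytosolic ribosome is built from a large subunit, which joins amino acids, and a small subunit, which reads the messenger RNA. Their protein genes lie apart in the genome and are expressed at high levels in nearly every cell. Ribosomes need about equal amounts of each protein. Many of their transcripts begin with a C followed by a run of pyrimidines, the terminal oligopyrimidine tract, through which mTOR signalling and the binding protein LARP1 set how much of the messenger is translated and kept. The assay here measured transcript ends and not translation.

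The 80 genes lay on 19 chromosomes, with 14 on chromosome 7 and none on chromosome 19. Start-site sequences from RefSeq (GRCm38.p6) were matched by symbol for 60 of them. A C-led run of at least 5 C or T bases starting within 10 bases of the annotated start, on the transcript strand, was present in 38 of these 60 genes (63.3%), against 34.9% of 17491 protein-coding genes searched the same way. The search began 10 bases before the start, so a run that began farther upstream was counted only from its first C inside the search. For runs of at least 8 bases it was 23 of 60 (38.3%) against 9.73%. Where a gene had several listed starts, the one with the longest run was used, and counted over every listed start the shares were 55.6% against 31.1% and 31.9% against 8.29%. Within the 300 bases from 250 before to 50 after the start, on either strand, the ETS-type motif CCGGAAG was found in 24 genes (40.0%, against 11.9% of all), AAGATGGC in 5 (8.33%, against 3.19%) and TATAAA in 6 (against 13.4%). Windows from 25 bases before to 15 bases after the start, with the counted tract in capitals, are given for genes among the lowest and highest muscle and bone values. They were chosen with those values known and show the start sites only, and no relation of tract to fold change is read from them.
Rpl35 (chr2:39005117-39005156, - strand): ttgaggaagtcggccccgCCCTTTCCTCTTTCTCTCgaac
Rps18 (chr17:33955651-33955690, - strand): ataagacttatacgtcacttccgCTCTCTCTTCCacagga
Rpl39 (chrX:37085208-37085247, - strand): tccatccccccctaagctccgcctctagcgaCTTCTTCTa
Rpl10 (chrX:74270791-74270830, + strand): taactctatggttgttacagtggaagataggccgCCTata
Rpl14 (chr9:120571492-120571531, + strand): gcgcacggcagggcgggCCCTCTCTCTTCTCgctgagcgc
Rps2 (chr17:24720038-24720077, + strand): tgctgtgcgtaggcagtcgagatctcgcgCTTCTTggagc
Rpl12 (chr2:32961687-32961726, + strand): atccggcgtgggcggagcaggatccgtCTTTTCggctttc
Rpl4 (chr9:64173362-64173401, + strand): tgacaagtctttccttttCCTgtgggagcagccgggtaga
Rpl39l (chr16:10170203-10170242, + strand): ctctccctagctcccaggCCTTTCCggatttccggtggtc
Rps27l (chr9:66946061-66946100, + strand): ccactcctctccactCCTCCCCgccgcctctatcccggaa
The counted tract had 18 bases in Rpl35 and 11 in Rps18, 14 in Rpl14, and 3 in Rpl10 and in Rpl4. In Rpl4 and Rps27l the run of C and T bases goes on upstream of the capitals, so their whole runs are longer than counted. In muscle the median log2 fold change was -0.19 for the 23 genes with a counted tract of at least 8 bases. For the 22 with a start and a counted tract under 5, Rpl4 among them, it was -0.21. In bone these medians were 0.20 and 0.22, all from the authors' deposited table.

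Every fold change, p, FDR and group mean of a gene comes from the authors' deposited table of knockout against control in that tissue. The log2 fold change is positive where the knockout was higher, and called means an FDR below 0.05 as the authors gave it. The group mean is the larger of the 2 group means and its header names no unit and no length correction. It is used to say how strong a signal lies behind a value, and in sums and ratios. Which group is larger can differ from gene to gene, so a share of summed group means is not the make-up of any sample. The tables hold no sample values that the labels assign to a group, so no value per sample, standard deviation or total count is given. An approximate standard error was computed from each fold change and p, taking the test as normal, and 95% intervals were built from it. In bulk samples, fewer cells of a type and less RNA per cell cannot be told apart.

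The tables differed in what else they held. The gene of the sorting marker, Pdgfra, had a group mean of 494 in the authors' deposited table of muscle and 8.60 in that of bone. Erythroid marker genes made up 58.8% of the summed group means in bone and 0.346% in muscle. The pan-leukocyte gene Ptprc, which encodes CD45, had 23.1 in bone and 0.781 in muscle, and Pecam1, which encodes CD31, 0.304 and 3.19, in the authors' deposited table. Esr1 itself did not pass in either tissue, with a log2 fold change of 1.02 in muscle (FDR = 1.00) and -2.69 in bone (FDR = 0.440) in the authors' deposited table, and a 3′ tag does not check a deletion elsewhere in the gene.

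In muscle, no ribosomal protein gene was called, and most had values slightly below 0. Of the 79 members with a fold change, 60 were negative and 19 positive (75.9% negative, against 46.5% of all 13158 genes tested), with a median of -0.14 and quartiles of -0.28 and -0.01 in the authors' deposited table. A median of -0.14 stands for 0.908 of the control level. None of the 78 members with an FDR was under 0.05, where 0.127% of all genes were called, and none of 79 had an unadjusted p under 0.05, against 11.7% of all genes and 8.05% of genes with a group mean of at least 100. The smallest member p was 0.0936. The lean towards lower values is a count of signs over genes measured in the same libraries, and its size was within the error of each gene.

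The muscle intervals were narrow enough to bound the change. The median approximate standard error was 0.29 on the log2 scale, so that a typical member needed a change of 1.48-fold to reach an unadjusted p of 0.05. For 70 of 79 members the 95% interval lay wholly within 2-fold in either direction, and for all 79 it included 0. Taking the test as normal, values therefore bound most members below a doubling or halving and do not show that their levels were equal.

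The lowest muscle values belonged to genes of both subunits. Rps12 (chr10:23785183-23787275 on GRCm38), a small subunit protein gene, had a value of -0.49 (p = 0.0936, FDR = 0.967 by the authors' deposited table), with an interval from -1.06 to 0.08. Rpl35 (chr2:39001580-39005624), whose protein sits at the opening of the tunnel through which the new chain leaves, had -0.48 in the authors' deposited table (p = 0.101). Rps18 (chr17:33951999-33956001), of the head of the small subunit, had -0.46 and Rps19 (chr7:24884371-24889806), the gene most often mutated in Diamond-Blackfan anaemia, had -0.45, with p = 0.105 and p = 0.104, by the authors' deposited table. Rpl39 (chrX:37082520-37085402), a very small protein that lines the exit tunnel, had -0.44 in the authors' deposited table (p = 0.107). Rpl10 (chrX:74270812-74273135), which joins the large subunit late in its maturation, had the lowest value of all, -0.59, with a wide interval from -1.68 to 0.50 (p = 0.287 in the authors' deposited table). These 6 genes had group means between 692 and 4047 in the authors' deposited table, so their values did not rest on weak signal. Rps12, Rpl35, Rps18 and Rpl10 share at least 90% of their transcript end sequence with other genes, so their values are uncertain.

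On the higher side in muscle, Rpl14 (chr9:120571444-120574654), of the large subunit, had 0.48 (p = 0.102, FDR = 0.985 by the authors' deposited table), with an interval from -0.09 to 1.05. Rps2 (chr17:24718116-24721929), at the entry of the messenger channel, had 0.32 in the authors' deposited table (p = 0.280). Rplp0, the base of the stalk that recruits elongation factors, had 0.20 in the authors' deposited table (p = 0.475). None of these 3 passed.

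**Figure D1:**
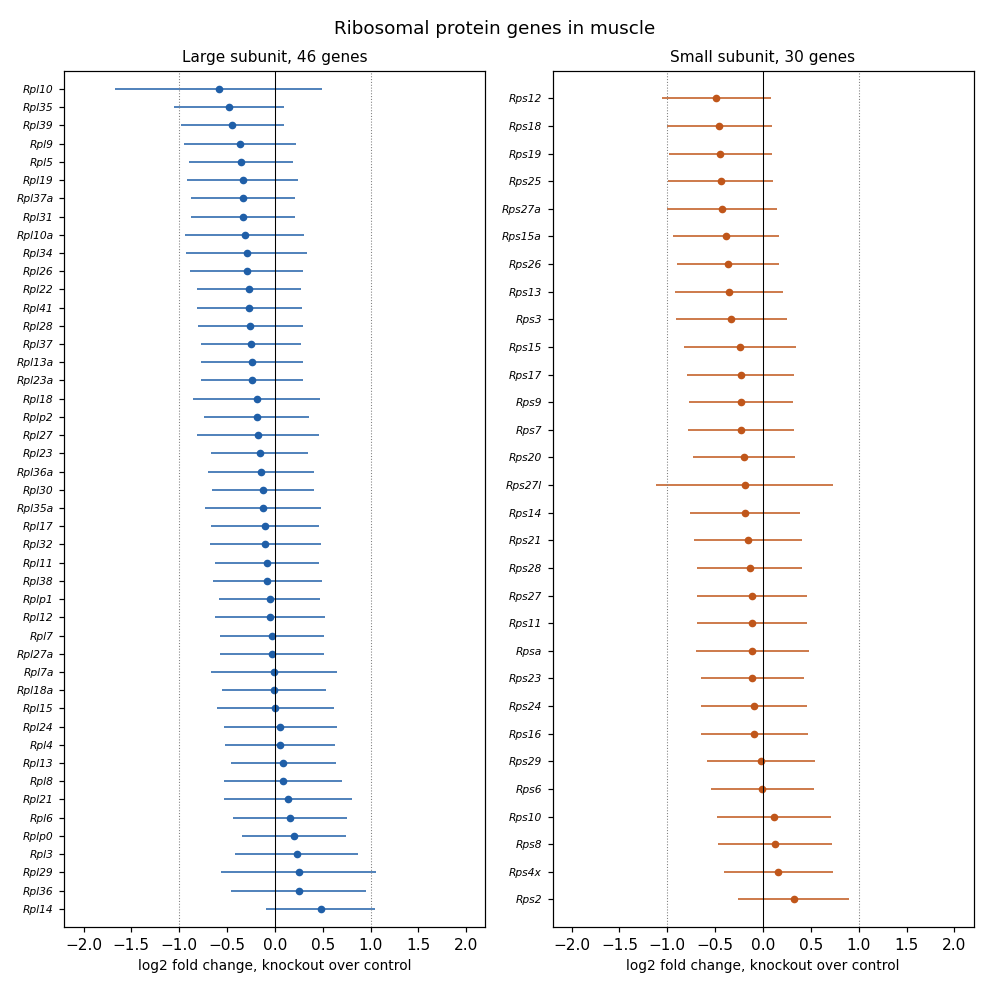
Log2 fold change of each ribosomal protein gene in muscle (x axis, knockout over control, from the authors' deposited table), with 1 row per gene and the large subunit left and the small subunit right. Points are fold changes and bars are approximate 95% intervals, dotted lines mark a 2-fold change, and every bar crosses 0. Rpl3l, Rpl10l, Rpl39l and 1 small subunit gene are left out.

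Large and small subunit genes were compared in muscle. The median was -0.11 over 48 large subunit genes and -0.19 over 31 small subunit genes in the authors' deposited table, a difference of 0.07. Of the large subunit genes 34 were negative and 14 positive, and of the small subunit genes 26 and 5. Without the 4 genes whose symbols end in l (Rpl3l, Rpl10l, Rpl39l and Rps27l), the difference of medians was 0.05. This difference was far smaller than the standard error of a single gene, and genes of 1 library are not replicates, so no test was made of it.

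By position in the ribosome, both signs occurred in muscle, with more negative values in most roles. Of all 79 members with a fold change, 75.9% were negative, and the genes named by role were chosen after their values were seen. Counts by role are therefore no result about a role. The 5 proteins around the tunnel opening (Rpl19, Rpl23a, Rpl26, Rpl31 and Rpl35) were all negative, from -0.48 to -0.24 in the authors' deposited table. Of the stalk genes, Rplp1 had -0.05, Rplp2 -0.19, and Rpl12, at the stalk base, -0.05 in the authors' deposited table, beside the positive Rplp0. Of the genes on the side of the catalytic centre, Rpl3 had 0.23, Rpl8 0.09 and Rpl10 -0.59 in the authors' deposited table. Of the exit tunnel genes Rpl4 had 0.05, Rpl17 -0.10 and Rpl39 -0.44 in the authors' deposited table. On the small subunit, Rps2 and Rps3 at the messenger entry had 0.32 and -0.33 in the authors' deposited table. Rpsa, Rps26 and Rps28 at the messenger exit were negative, from -0.36 to -0.11, as were Rps15 and Rps23 near the decoding site, at -0.24 and -0.11, in the authors' deposited table. Rpl5 had -0.36 and Rpl11 -0.09 in the authors' deposited table, the pair that binds a small ribosomal RNA and can sequester the p53 regulator MDM2. Of 9 genes linked to Diamond-Blackfan anaemia, 8 were negative with a median of -0.23 in the authors' deposited table. None of these genes passed.

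In muscle the sign went with the deposited level. All 38 members with a group mean above the median of the 76 genes left without the l paralogs were negative, from -0.49 to -0.02, with a median of -0.23 in the authors' deposited table. The 38 at or below it were divided into 21 negative and 17 positive, with a median of -0.01. Over the 76 genes, fold change and group mean had a Spearman rho of -0.44 (Pearson r = -0.45 with the log2 level), across genes that share libraries and table. Among the 53 other genes above that same level, 27 were negative and the median was -0.00419, and among the 260 other genes of group mean at least 500 it was 0.01. In bone, fold change and group mean of the 76 genes had a Spearman rho of -0.35 (Pearson r = -0.41 with the log2 level). The 38 above the bone median level had a median of 0.22, with 28 positive, in the authors' deposited table. For the 38 at or below it the median was 0.32, with 33 positive. What divides the members by level was not tested in either tissue.

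**Figure D2:**
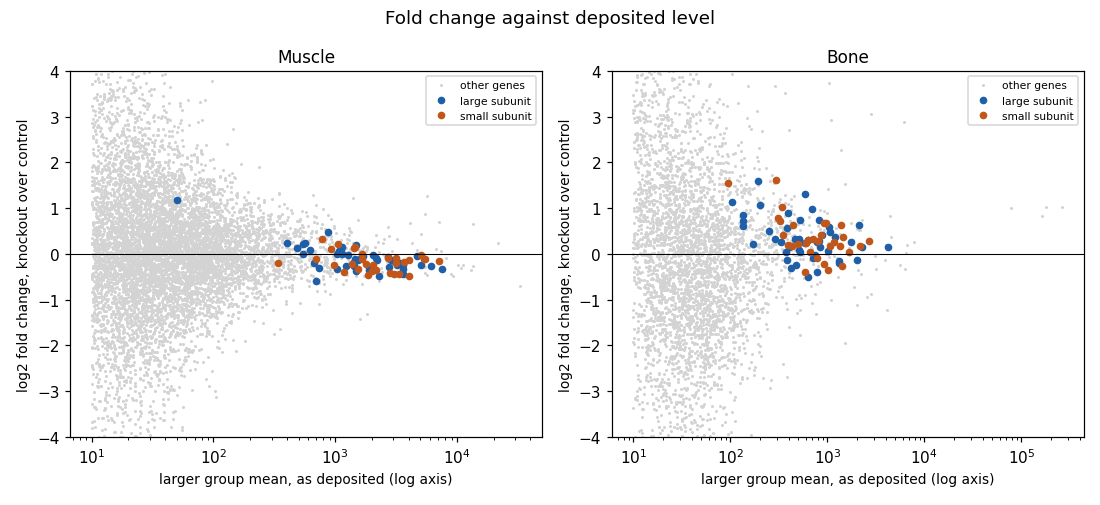
Log2 fold change (y axis, knockout over control) against the larger group mean (x axis, log scale, as deposited) for genes with a group mean of at least 10, in muscle and in bone, with values beyond 4 on either side not drawn. Ribosomal protein genes are coloured by subunit and other genes are grey. In muscle the members of highest level lie just below 0, and in bone most lie above 0.

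In bone, no ribosomal protein gene was called either, and most values were above 0. Of 79 members with a fold change, 63 were positive and 16 negative (79.7% positive, against 69.7% of all 10518 genes tested), with a median of 0.28 and quartiles of 0.05 and 0.63 in the authors' deposited table. The share of positive values was thus near that of the whole table, whose median was 2.51, so it is no result about ribosomal proteins. Beside genes of like level the share was larger, since 48.8% of 617 other genes within the level range of the 76 genes without the l paralogs were positive, with a median of -0.02. Among the 96 other genes with a group mean of at least 500, 59.4% were positive with a median of 0.20, against 75.5% and 0.24 for the 49 members at that level. None of 78 members was under an FDR of 0.05, where 0.0352% of all genes were called. Of 79 members, 1 had an unadjusted p under 0.05 (33% of all genes, and 5.56% of genes with a group mean of at least 100), and the same gene, Rpl39l, was the 1 member under an FDR of 0.1 (32.2% of all genes).

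The direction in bone depended on the centre. Taking fold changes relative to the median of all genes with an FDR, which was 1.46, left 4 members positive and 75 negative, and the member median became -1.18. Relative to genes with a group mean of at least 100, whose median was 0.03, 62 were positive and the median was 0.25. In muscle, these 2 centres left 18 and 19 members positive, with medians of -0.17 and -0.14.

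The bone errors were larger. The median approximate standard error was 0.68, so that a typical member needed a change of 2.51-fold to reach an unadjusted p of 0.05, and for 0 of 79 members did the interval lie within 2-fold. Rps2 had 1.62 (p = 0.0614, FDR = 0.140 by the authors' deposited table), with an interval from -0.08 to 3.32. Rpl12 (chr2:32961559-32965345) had 1.32 (p = 0.0645, FDR = 0.146), with an interval from -0.08 to 2.72, where muscle gave -0.05, in the authors' deposited table. Rpl36 (chr17:56613416-56614243) had 1.60 (p = 0.113) and Rpl34 (chr3:130726831-130730398) 0.99 (p = 0.137) in the authors' deposited table. On the lower side, Rpl4 (chr9:64173375-64178666), which lines the exit tunnel, had -0.51 (p = 0.449), Rpl35 -0.40 (p = 0.578), Rps4x -0.38 (p = 0.567) and Rps6 -0.35 (p = 0.591) in the authors' deposited table. Rps6 is the protein phosphorylated by S6 kinase when growth signals are active. The stalk genes Rplp0, Rplp1 and Rplp2 had 0.07, 0.27 and 0.16 in the authors' deposited table. None of the genes in this paragraph passed.

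**Figure D3:**
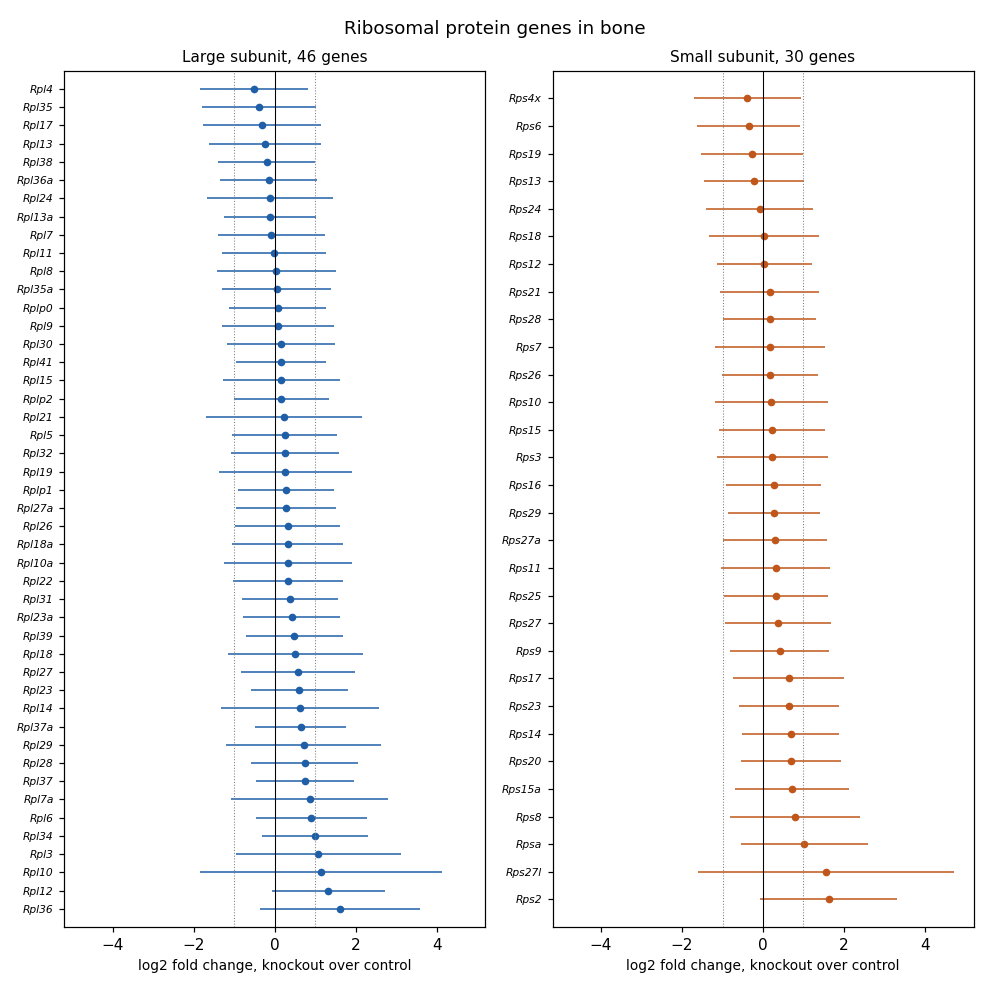
Log2 fold change of each ribosomal protein gene in bone (x axis, knockout over control, from the authors' deposited table), 1 row per gene, large subunit left and small subunit right. Points are fold changes, bars are approximate 95% intervals and dotted lines mark a 2-fold change. Every bar crosses 0 and every bar reaches beyond 2-fold on at least 1 side. Rpl3l, Rpl10l, Rpl39l and 1 small subunit gene are left out.

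Large and small subunit genes had medians close to each other in bone. The median was 0.27 over 48 large subunit genes and 0.28 over 31 small subunit genes by the authors' deposited table, a difference of -0.00315. Of the large subunit genes 37 were positive and 11 negative, and of the small subunit genes 26 and 5. By role, all 4 stalk genes were positive, from 0.07 to 1.32, while of the exit tunnel genes Rpl4 and Rpl17 were negative and Rpl39 was 0.47, in the authors' deposited table. Of the tunnel opening genes 4 of 5 were positive, as were all genes of the catalytic side (3), the messenger entry (2), the messenger exit (3) and the decoding site (2), in a table where 69.7% of genes were. Of the 9 Diamond-Blackfan genes 6 were positive, with a median of 0.18 in the authors' deposited table.

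Marker genes of several cell types were read in the same comparisons, beside a bone table in which 69.7% of all genes were positive with a median of 2.51 and 33% had an unadjusted p under 0.05. In bone, all 14 neutrophil marker genes were positive with a median of 3.70, 10 with an unadjusted p under 0.05 and 1 called, Ltf, and none was listed at 0. Together they made up 1.09% of the summed group means. Of 12 macrophage markers 11 were positive with a median of 3.56 and 0 called. Of 11 erythroid markers 10 were positive with a median of 0.82 and 0 called, all from the authors' deposited table. Of 14 stromal markers in bone 10 were positive with a median of 0.63, and of 5 mural markers with a value 3 were negative with a median of -5.04, with 0 called, in the authors' deposited table. In muscle, 13 of 14 stromal markers were positive (median 0.58, Col1a2 called), and 6 of 8 erythroid markers with a value were negative (median -0.82, 0 called, 3 listed at 0), in the authors' deposited table. Of 7 endothelial markers in bone, 5 were listed at 0 (Cdh5, Cldn5, Emcn, Kdr and Tek). Their part in the ribosomal protein values was not tested.

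The 2 tissues were set side by side for the 78 members with an FDR in both. In 49 the muscle value was negative and the bone value positive, and in 14 both were positive. In 11 both were negative and in 4 muscle was positive and bone negative. The same patterns were not counted over all genes, and the bone signs depended on the centre. These counts are therefore no result about ribosomal protein genes. The bone value exceeded the muscle value in 67 of 78 (85.9%), against 65.6% of 5785 genes, with a median difference of 0.47 against 1.09 for all. Each difference was tested by a normal approximation that takes muscle and bone libraries as independent, though nothing says whether they came from separate animals. With Benjamini-Hochberg adjustment over the 5785 genes, no gene passed at 0.05, and 1514 had an unadjusted p under 0.05. The only member among them was Rpl39l, whose unadjusted value was 0.0412 and whose adjusted value by this normal approximation was 0.172. For Rpl12 the bone value exceeded the muscle value by 1.37, with an interval from -0.14 to 2.88. Across 76 genes without the l paralogs the fold changes had a Pearson r of 0.17 and a Spearman rho of 0.05, as a description of genes measured in the same libraries.

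**Figure D4:**
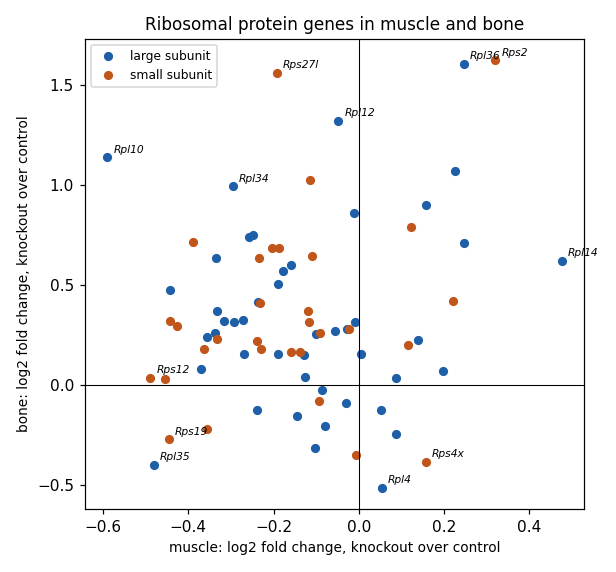
Log2 fold change in bone (y axis) against muscle (x axis), knockout over control, for 77 ribosomal protein genes coloured by subunit. Most points lie in the upper left, where the bone sign depends on the centre of the fold changes. Rpl39l, at 1.19 in muscle and 8.06 in bone, is beyond the axes.

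Deposited levels were high in both tables. Group means of the 76 genes without the l paralogs ran from 400.0 (Rpl29) to 7533 (Rpl37a) in muscle and from 104 (Rpl10) to 4241 (Rpl41) in bone, by the authors' deposited table. The 80 genes made up 14.8% of the summed group means in muscle and 5.43% in bone. Leaving the 4 globin genes out of the sum, the shares were 14.9% and 13.0%. Large subunit genes held 54.5% of the members' sum in muscle and 56.9% in bone. The muscle value exceeded the bone value in each of the 76 genes, by 1.45 to 6.63 times with a median of 2.84, in tables that were made separately. The order of the genes was alike in the tables (Spearman rho = 0.92 across 76 genes).

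The 4 genes whose symbols end in l are paralogs of members, and Rpl3l, Rpl10l and Rpl39l among them are known for a narrower expression. Rpl3l, which replaces Rpl3 in heart and skeletal muscle fibres, was listed at 0 in both tables, so no fold can be given. Rpl10l, known from testis, had group means of only 0.108 and 0.125 and no FDR, in the authors' deposited table. Rpl39l (chr16:10170226-10174911), a paralog of Rpl39 known from male germ cells, had 1.19 in muscle (p = 0.260) and 8.06 in bone (p = 0.0117, FDR = 0.0786) in the authors' deposited table. The group mean of Rpl39l was 49.8 in muscle. In bone its group mean was 7.58 and its interval ran from 1.79 to 14.34. The bone value can therefore come from 1 group with almost no signal and is not an estimate of size. For its parent Rpl39 the authors' deposited table of bone gives 0.47 (p = 0.439). Rps27l (chr9:66946086-66949516), a p53-responsive paralog of Rps27, had -0.19 in muscle (p = 0.683) and 1.56 in bone (p = 0.333), where Rps27 had -0.12 and 0.37, in the authors' deposited table.

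Ribosomal protein genes have many processed copies, which bears on how reads were assigned. Of the 80 members, 54 shared at least 1 exact stretch of 50 bases, within the last 150 bases of a coding transcript, with another gene of GENCODE M21, and 26 shared none. In 13 members at least 90% of the stretches were shared, Rpl10, Rpl35, Rps12, Rps18 and Rps2 among them. Rps2 shared its end with 37 genes, Rps12 with 21 and Rpl21 with 40, the most of all. The values of these genes are therefore uncertain. In muscle the median was -0.10 for the members with unshared ends and -0.15 for those with shared ends, and in bone 0.32 and 0.26, in the authors' deposited table. For the 13 members with at least 90% of the stretches shared, it was -0.23 in muscle and 0.15 in bone. Whether end sharing shaped these values was not tested. The tables held 7 rows named as ribosomal protein pseudogenes, whose group means summed to 1.05% of the members' sum in muscle and 0.664% in bone.

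Proteins of the ribosome whose symbols have another form were read separately. Fau is made as a fusion to a ubiquitin-like protein, and Rack1 is a scaffold on the small subunit. In muscle, Fau had -0.21, Rack1 -0.02 and Rps3a1 0.06 in the authors' deposited table. In bone they had 0.82, 0.51 and 0.64 in the authors' deposited table. Of all 8 such genes, 6 were negative in muscle (median -0.23), where 46.5% of all genes tested were. In bone 6 of the 7 with a value were positive (median 0.64), where 69.7% of all genes tested were. In both tissues 0 were called and 0 were under an unadjusted p of 0.05. Rps27rt, a retrotransposed copy of Rps27, had -0.72 in muscle in the authors' deposited table, the smallest p among them (p = 0.0803).

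Other genes of translation were read beside the ribosomal proteins. Of 8 elongation genes, 7 were positive in muscle, where 53.5% of all genes tested were, with a median of 0.18 and 0 called. Among them was Eef2, which moves the ribosome along the messenger, with 0.33 (p = 0.282) by the authors' deposited table. Eef2k, the kinase that restrains Eef2, was the 1 with an unadjusted p under 0.05. Its value in the authors' deposited table was 8.19 at a group mean of 13.8, so this value can come from 1 group with almost no signal. Of 35 initiation factor genes 19 were positive (median 0.04), with 1 higher and 2 lower at p under 0.05. These p counts together are a smaller share than the 11.7% of all muscle genes, so they are no result about initiation factors. The lower genes were Eif3a (-1.09, p = 0.0105, FDR = 0.431), a scaffold of initiation factor complexes, and Eif4e (-1.18, p = 0.0478, FDR = 0.805), which binds the cap, in the authors' deposited table. In bone, 5 of 8 elongation genes were positive (median 0.10), with 1 at an unadjusted p under 0.05. Of the 35 initiation genes 26 were positive there (median 0.80), with 3 at p under 0.05. Of all bone genes tested 69.7% were positive and 33% had p under 0.05, so these bone counts are no result about either list. Of 23 other transcripts known to carry the pyrimidine tract, 16 were positive in muscle (median 0.06) and 14 in bone (median 0.42). This list overlaps the others, with Fau also among the ribosomal proteins under other names and Tpt1 also among the elongation genes. The lists are therefore not separate observations. Of all genes tested, 53.5% were positive in muscle and 69.7% in bone. None of the 23 had an unadjusted p under 0.05 in either tissue. No gene of these lists was called, and a difference between them and the ribosomal protein genes was not tested.

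Ribosome assembly genes varied more widely at lower levels. Of 52 in muscle 24 were positive and 28 negative (median -0.05), with 1 higher and 4 lower at p under 0.05 and 0 called. These p counts together are a smaller share than in the whole muscle table, where 11.7% had an unadjusted p under 0.05. They are therefore no result about assembly genes. Nip7, an assembly factor of the large subunit, had -3.00 (p = 0.00272, FDR = 0.239) and Rrs1, which helps to load the small ribosomal RNA particle, -2.25 (p = 0.0132, FDR = 0.486) in the authors' deposited table. In bone, 29 of the 49 with a value were positive (median 0.69), with 12 higher and 5 lower at p under 0.05 and 0 called. These bone counts are close to or below those of the whole table, where 69.7% were positive and 33% had an unadjusted p under 0.05, so they are no result about assembly genes. Of the 22 growth control genes, 2 in muscle had an unadjusted p under 0.05, both higher, where 11.7% of all genes were under it. They were Rictor (7.33, FDR = 0.127), a subunit of mTOR complex 2, and Rptor (6.91, no FDR), its counterpart in complex 1, in the authors' deposited table. Their group means were 31.6 and 6.22, so these values can come from 1 group with almost no signal. In bone, 5 of 19 were higher at p under 0.05, a share no larger than that of the whole table (3032 of 10518), among them the translation repressor genes Eif4ebp2 (9.10) and Eif4ebp1 (10.44) and the S6 kinase gene Rps6kb1 (9.21), at group means of 59.5, 37.3 and 15.8, and the authors' deposited table gives each an FDR of 0.0784, where 32.2% of all genes were under 0.1. These bone values, too, can come from 1 group with almost no signal.

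**Figure D5:**
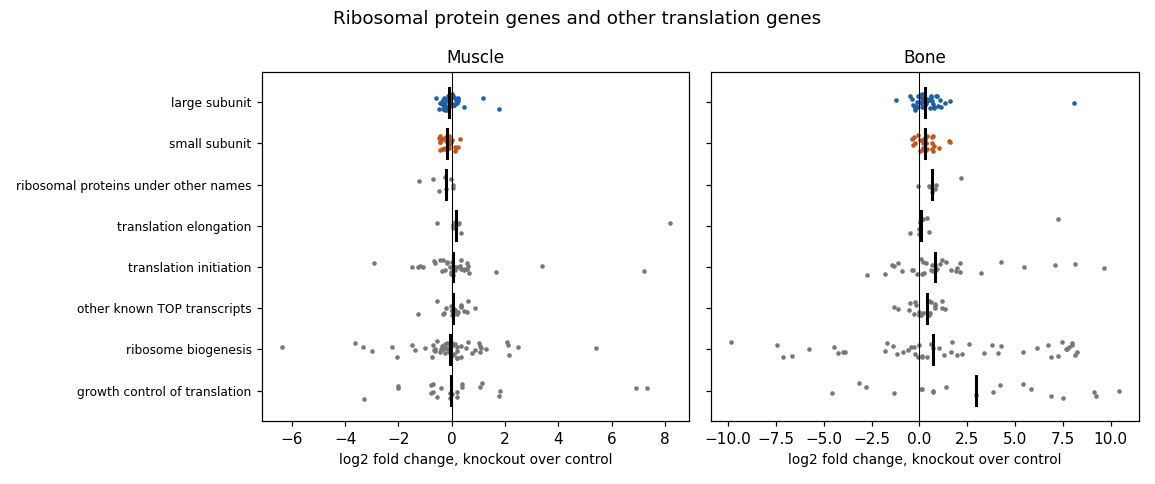
Log2 fold change (x axis, knockout over control, with a scale of its own in each panel) of large and small subunit genes and of 6 other lists of translation genes, in muscle and in bone. Each point is a gene and black bars are medians. Most subunit genes lie near 0, with Rpl10l at 1.76 in muscle and Rpl39l at 8.06 in bone farthest out, and ribosome assembly and growth control genes spread more widely.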

How the data were processed

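RNA of 12 sorted-cell samples in 4 groups of 3 was profiled, per the labels' protocols, with a QuantSeq kit that reads transcript 3′ ends. The submitters' processing notes name GRCm38 and mm10; no source used here gives the aligner, the counting tool or the test. The deposited log2 fold changes, p-values, FDR and Bonferroni p-values are the authors' knockout over control comparison, per the file headers. The deposited group mean is a score whose header names no unit. The 48 per-library columns carry laboratory codes that no label assigns to a sample, and were not used, so depth, replicate errors and a count test were not analysed here.

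Gene positions in the tables overlapped GRCm38 for only 2 of 80 members, so positions are those of GENCODE M21 (GRCm38), matched by Ensembl ID. Standard errors were computed as the fold change divided by the normal quantile of its p, with 95% intervals, in Python 3.11.15 (pandas 2.3.3, SciPy 1.17.1, numpy 2.4.6, matplotlib 3.10.9). This step and the Benjamini-Hochberg adjustment were run on simulated data whose p-values came from the same normal formula. That checks the computation only and cannot show whether the authors' test was near normal. Named genes were those past the FDR, the 5 smallest p in each direction, the 2 highest and 2 lowest fold changes per subunit and tissue, the stalk genes, the l paralogs with their parents, and from other lists the ribosomal proteins under other names and the 3 smallest p, of which some are printed. Genes named by role or level, the marker genes Pdgfra and Ptprc and the endothelial markers listed at 0 were chosen after their values were seen. Some genes that this rule names are counted but not reported here by name. Members and lists were chosen with earlier results of these data known. Alternatives changed the call rule, a filter on the group mean, the centre of the fold changes, the summary and the members used.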

Additional observations from a re-analysis of the deposited data

How the results depend on the processing

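The count of called members was 0 in both tissues by FDR, Bonferroni and Benjamini-Hochberg adjustment over every gene with a p, and with a group mean of at least 100. In bone it was 1 at an FDR under 0.1 and 1 at an unadjusted p under 0.05. The muscle median stayed negative in all alternatives, from -0.17 to -0.10, as did the mean (-0.10), and the muscle difference between large and small subunit stayed positive, from 0.05 to 0.15. The bone median stayed positive, from 0.25 to 0.32, except when centred on all genes with an FDR, where it was -1.18, and the bone mean was 0.43. The median of those genes was 1.46, and that of bone genes with a group mean of at least 100 was 0.03. The bone difference between subunits, -0.00315, changed sign to 0.00578 with a group mean of at least 100 and without the l paralogs, to 0.00290 with genes that have an FDR, and to 0.11 with means in place of medians, so it has no direction. Members with unshared transcript ends were used as an alternative chosen after seeing the data, and gave -0.10 in muscle and 0.32 in bone. No paired analysis was possible because the per-library columns carry no replicate number and no sample; leaving out replicates and a count test were not run for the same reason.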
